A study of Drosophila melanogaster with 12 samples.

Results

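The Armi KEE rescue was compared with the Armi WT rescue in 3 libraries against 3. The genes compared were those with an RPM (reads scaled to the library total) of at least 10 in at least 3 of these 6 libraries. Of 17469 genes in the deposited table, 4078 met this rule. All 6 libraries came from OSC, a Drosophila melanogaster cell line derived from the somatic cells of the ovary. In both groups siRNA depleted the endogenous Armitage protein (Armi), and a Flag-tagged Armi was expressed from an electroporated plasmid. The WT group received Armi WT-Flag and the KEE group the Armi KEE mutant-Flag. The labels do not say which residues the name KEE stands for. Small RNAs bound to Piwi were isolated with a Piwi antibody, cut from a gel by size and sequenced, with an rRNA removal step. No library of the knockdown without a rescue was analysed here, and reads of armi could come from the plasmid as well as from the endogenous gene.

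PIWI-interacting RNAs (piRNAs) are short RNAs that guide the Argonaute protein Piwi into the nucleus, where it silences transposons through chromatin. In the ovarian soma they are cut from long single-stranded precursors. The main precursor is flam, a long noncoding transcript full of transposon remnants, and many messenger RNAs, with tj as the best known, also give piRNAs, mostly from their untranslated ends. Armi is an RNA helicase that binds these precursors in the Yb body and hands them to the nuclease Zucchini (zuc) on the mitochondrial outer membrane, where Gasz and Daedalus (daed) hold it. A gene's RPM in these libraries counts the Piwi-bound small RNA reads assigned to it, relative to the library total. It is not the level of its messenger RNA.

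The library totals were recovered from the RPM values. They were 3828687, 2335292 and 2654833 reads with WT and 3766284, 3697324 and 3995009 reads with KEE. At these totals 10 RPM stood for 23.4 to 40.0 reads. Which reads the totals count is not known here. Correlations of log2 values between libraries were 0.985 to 0.991 within WT, 0.994 to 0.995 within KEE and 0.883 to 0.895 between the groups. The first principal component held 91.9% of the variance and separated the groups. The second held 3.66% and set WT replicate 3 apart from the other WT libraries. The median coefficient of variation of a gene was 10.6% in WT and 6.71% in KEE. Nothing in the labels says that the replicates were separate cultures, so each p below measures the spread between these libraries, which may be technical. In bulk libraries, fewer cells that make a piRNA and fewer piRNAs per cell cannot be told apart.

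Genes that define the ovarian soma gave piRNAs in every library. The eyes absent gene eya, a transcription factor gene of follicle cells, had 29.3, 27.4 and 30.1 RPM with WT and 83.6, 81.1 and 78.1 RPM with KEE. Of the germline markers, vas stayed at 0 to 1.13 RPM, aub at 4.00 to 6.85 RPM, AGO3 at 2.00 to 6.79 RPM, osk at 2.12 to 7.53 RPM and rhi at 1.13 to 3.50 RPM, and none of these 5 entered the test. Of all 23 germline genes listed, 8 were tested, among them tud (374 to 350 RPM) and pgc (296 to 103 RPM). Of 8 blood cell markers crq, srp and ush were tested, while Hml and NimC1 did not exceed 0.522 RPM. Together these 8 gave 227 to 243 RPM with WT and 147 to 163 RPM with KEE. Of 6 fat body markers none was tested, and together they gave 3.77 to 4.28 RPM with WT and 1.35 to 2.00 RPM with KEE. Of 8 neuron markers only elav and futsch were tested, and of 7 muscle markers only sls, bt and Mef2.

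A larger part of the library was assigned to genes with KEE. Reads assigned to genes made up 64.0%, 64.3% and 61.9% of the 3 WT libraries and 79.2%, 79.6% and 79.7% of the 3 KEE libraries. The groups did not overlap, and the exact two-sided permutation p was 0.1, the smallest that 3 against 3 libraries allow. Reads not assigned to a gene, which can include transposon-derived piRNAs, were not analysed here. RPM is relative to the library total, so a shift in this share enters the RPM of every gene. Each comparison is therefore given in RPM and also centred, that is, after the median tested gene of each library was set to the same value. Centring subtracted 0.55 on the log2 scale from each RPM fold change.

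In RPM, 3222 of 4078 genes (79%) changed at an adjusted p under 0.05 (limma with Benjamini-Hochberg). Of these, 2410 (59.1% of the genes tested) were higher and 812 (19.9%) lower with KEE, and rises made up 74.8% of the changes. Scaling to the total of the gene table instead gave 1839 higher and 1217 lower. Centred, 2979 genes (73.1%) changed, 1428 (35%) higher and 1551 (38%) lower, and rises made up 47.9% of the changes. At least 2-fold differences were seen for 1180 genes higher (28.9%) and 228 lower (5.59%) in RPM, and for 432 higher (10.6%) and 625 lower (15.3%) when centred. Centring sets the median gene to no change, so the near balance of rises and falls on that scale follows from its construction.

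Combining the 2 scales sorted the genes into classes. Higher in both were 1428 genes, and lower in both were 812. A further 876 genes were higher in RPM alone, 633 were lower when centred alone, 106 were higher in RPM and lower when centred, and 223 changed in neither. No gene was lower in RPM and higher when centred. Among 3281 genes with at least 10 RPM in all 6 libraries, 1876 were higher and 709 lower in RPM. Centred, 1117 of them were higher and 1388 lower. This stricter rule also shapes the counts. It left out 288 genes that passed through KEE alone and 55 that passed through WT alone.

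**Figure D1:**
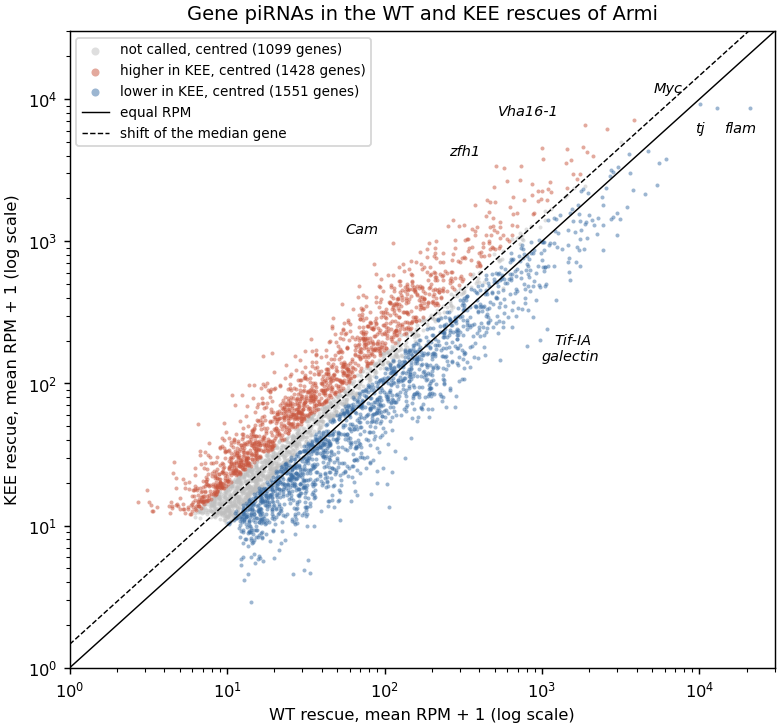
Mean RPM + 1 of 4078 genes with WT (horizontal) and KEE (vertical), both on log scales, with 1 point per gene coloured by its centred call (1428 higher, 1551 lower, 1099 not called). The solid line marks equal RPM and the dashed line the shift of the median gene by 0.55 on the log2 scale; most points lie above the solid line, and flam and tj lie below it.

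Differences in RPM were added up over the tested genes to see where the extra gene reads lay. Gains in mean RPM summed to 276182 RPM over 2909 genes and losses to 116774 RPM over 1169 genes. The gains were spread widely. It took 148 genes to hold 50% of the gain and only 38 to hold 50% of the loss. The 12 genes of the largest gains and 12 of the largest losses, among those called alike on both scales without overlap of the libraries, held 13.2% and 30.7% of these sums, and flam alone held 10.4% of the loss.

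The reads were spread more evenly over genes with KEE. The effective number of genes, the exponential of the Shannon entropy of the gene shares, was 1138, 1126 and 1183 with WT and 1424, 1400.0 and 1388 with KEE. The share of the 20 genes with the most reads was 17.4 ± 0.210% in WT and 13.0 ± 0.176% in KEE (SD, n = 3). At least 10 RPM was reached by 3670.3 ± 54.3 genes with WT and 4099.7 ± 18.8 with KEE. None of these measures overlapped between the groups, and each had an exact permutation p of 0.1, the smallest possible here.

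**Figure D2:**
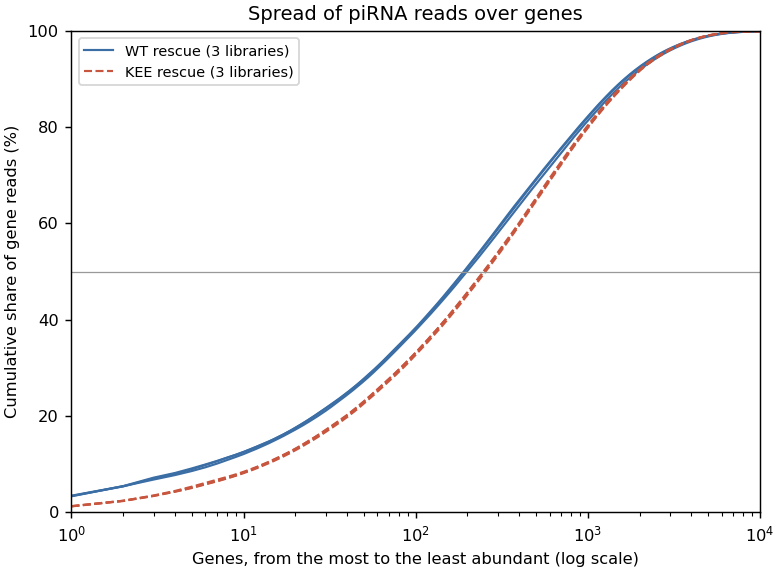
Cumulative share of gene reads (%, vertical) against the number of genes counted from the most to the least abundant (log scale, horizontal), with 1 line per library. The 3 KEE lines run below the 3 WT lines, and the lines cross 50% at 191 to 199 genes with WT and 248 to 255 with KEE.

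The order of the genes at the top changed. RPM is not divided by gene length, so this order ranks the reads a gene gives, not its piRNA density. The flam locus (chrX:21631891-21790731, dm6) had 21052, 20733 and 20769.7 RPM with WT and 8921, 8991 and 8195 RPM with KEE, and its rank went from 1 to 2. The proto-oncogene Myc (chrX:3373159-3391697) had 10597, 11248 and 8538 RPM with WT and 8867, 9386 and 9315 RPM with KEE. WT replicate 3 was low at Myc, the groups overlapped in RPM, and Myc moved from rank 3 to 1, the highest with KEE. Its RPM change was -0.13 ± 0.090 (adjusted p = 0.192, limma with Benjamini-Hochberg), against a centred change of -0.68 ± 0.088 (adjusted p = 6.36e-06). Without WT replicate 3 the RPM change of Myc was -0.25 and passed the test.

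Of the 20 genes with the most reads in WT, 12 are described among the losses and gains below. The zinc-finger gene crol had 4823, 4709.9 and 4686 RPM with WT and 4124, 4166 and 4711 RPM with KEE, which overlapped in RPM. It was lower only when centred (-0.68 ± 0.069). The kinase gene nmo was lower on both scales, with 3658, 3788 and 3443 RPM with WT and 2975, 3061 and 3023 RPM with KEE and a centred change of -0.81 ± 0.060. BuGZ, a gene of mitotic spindle assembly, had 2809, 2772 and 2936 RPM with WT and 1486, 1384 and 1546 RPM with KEE, with no overlap and a centred change of -1.50 ± 0.065. The RNA helicase gene Rm62 was higher in RPM (0.67 ± 0.059), with 3199, 3063 and 3216 RPM with WT and 5034, 5175 and 4869 RPM with KEE, and its centred change of 0.12 ± 0.059 did not pass the test (adjusted p = 0.077, limma with Benjamini-Hochberg). The RNA-binding protein genes larp and Unr and the deubiquitinase gene Usp10 had RPM changes of 0.13, 0.21 and 0.13 and centred changes of -0.42, -0.34 and -0.42. The RPM changes of these 3 genes took the opposite sign when scaled to the gene-table total.

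The largest gains in RPM came from protein-coding genes of several kinds. The gain at Vha16-1 (chr2R:6625242-6633090), which encodes the membrane ring subunit of the vacuolar proton pump, was the largest, with 1980.3, 1979 and 1657 RPM with WT and 5962, 7515 and 6389 RPM with KEE. The KEE libraries lay well above the WT libraries, and the centred change was 1.27 ± 0.087. The uncharacterised gene CG14441 (chrX:6699508-6719389) had 972, 951 and 1087 RPM with WT and 4685, 4282 and 4721 RPM with KEE, a centred change of 1.64 ± 0.071. Of the 12 genes, pAbp, Larp4B, sqd and Imp encode RNA-binding proteins. The gene of the cytoplasmic poly(A)-binding protein, pAbp (chr2R:18140078-18147191), had 616, 592 and 510.0 RPM with WT and 3050.2, 3372 and 3387 RPM with KEE. Its centred change of 1.97 ± 0.075 was larger than that of the La-related gene Larp4B (2579 to 6131 RPM, 0.70 ± 0.059), the hnRNP gene sqd (1916 to 4256 RPM, 0.60 ± 0.060) and the mRNA-binding protein gene Imp (1536 to 3704 RPM, 0.72 ± 0.071).

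Other genes of the 12 were of further kinds. The BTB zinc-finger gene chinmo (chr2L:1651258-1704682), which helps to keep somatic stem cells in their state, had 1403, 1416 and 1498 RPM with WT and 4384, 4273 and 4691 RPM with KEE (centred 1.08 ± 0.064). The zinc-finger homeodomain gene zfh1, a soma marker, went from rank 252 to rank 21, with 501, 541 and 479.9 RPM with WT and 3417, 3299.7 and 3359 RPM with KEE. Its 3 KEE libraries lay far above the 3 WT libraries. At kek1 (chr2L:12817000-12822787), which encodes an inhibitor of the EGF receptor, the libraries read 1049, 1052 and 958 RPM with WT and 3695, 3812 and 3798 RPM with KEE, and its centred change was 1.34 ± 0.060. Hsc70-3 (chrX:11801696-11807117), which encodes a chaperone of the endoplasmic reticulum, had 767, 707 and 734 RPM with WT and 3354, 3371 and 3446 RPM with KEE, a centred change of 1.65 ± 0.059. Smaller changes from higher levels were found at the cyclin gene CycG (3837 to 7086 RPM, centred 0.34 ± 0.060) and the small GTPase gene Rap1 (1827 to 4567 RPM, centred 0.77 ± 0.063).

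**Figure D3:**
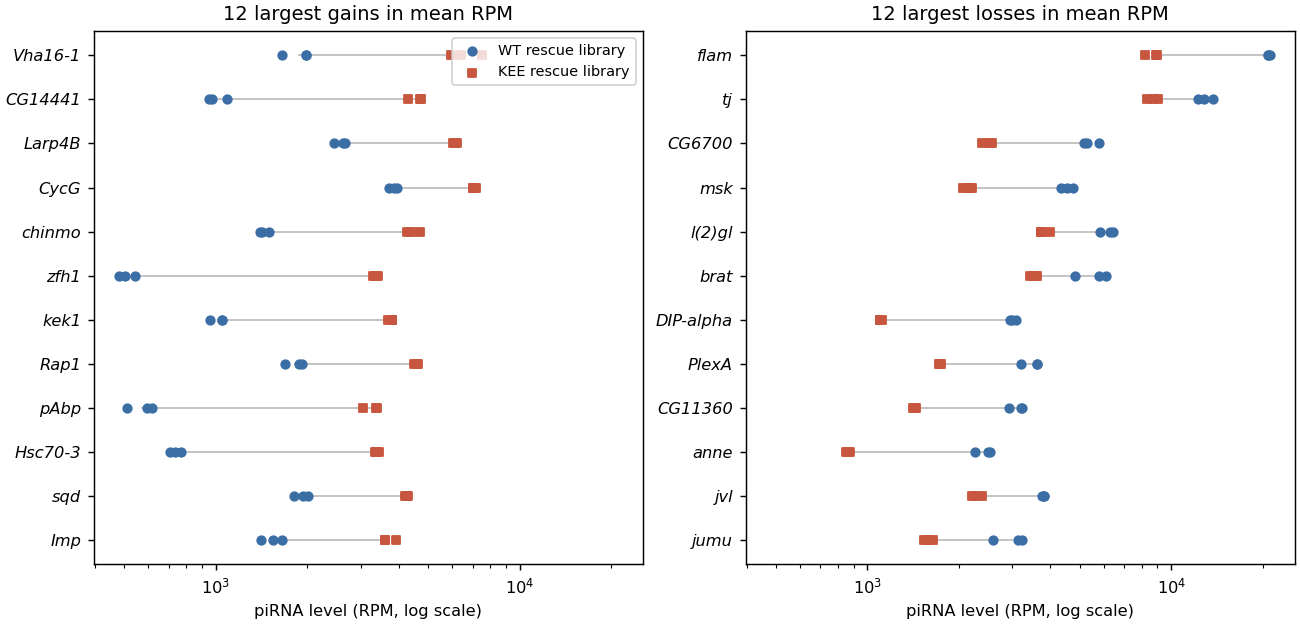
RPM of each library (log scale, horizontal; blue circles WT, red squares KEE, 3 each) for the 12 genes with the largest gains (left) and the 12 with the largest losses (right) in mean RPM, grey lines joining the means. The groups do not overlap at any of the 24 genes, which was a condition of their choice. The mean of flam falls from 20852 to 8702 RPM.

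Among the losses, tj (chr2L:19464267-19467758), the gene of a large Maf transcription factor of the ovarian soma, had 12839, 13673 and 12219 RPM with WT and 8294, 8710.4 and 9002 RPM with KEE. Its RPM change was -0.57 ± 0.067 and its centred change -1.12 ± 0.069. The uncharacterised gene CG6700 (chr2L:10837732-10842597) had 5768, 5272 and 5159.6 RPM with WT and 2531, 2572 and 2388 RPM with KEE, a centred change of -1.66 ± 0.062. At the importin gene msk (chr3L:8116179-8121579) the libraries read 4732, 4343 and 4549 RPM with WT and 2163, 2203 and 2062 RPM with KEE (centred -1.63 ± 0.060). The WT and KEE libraries of these 3 genes stayed apart on both scales, which was a condition of their choice. The tumour suppressor gene l(2)gl, of cell polarity, fell from 6171 ± 317 to 3812 ± 161 RPM (centred -1.24 ± 0.063), and brat, a translational repressor gene, fell from 5559 ± 646 to 3524 ± 98.0 RPM (centred -1.20 ± 0.079). DIP-alpha (chrX:3507245-3571649), a cell surface protein gene of the immunoglobulin family, had 2990.3, 2942 and 3082 RPM with WT and 1117, 1102 and 1098 RPM with KEE, one of the steepest centred changes of the group at -1.99 ± 0.057. The microtubule regulator gene jvl fell from 3791 ± 30.0 to 2282 ± 89.9 RPM and the forkhead factor gene jumu from 2984 ± 344 to 1586 ± 55.8 RPM. The other 3 genes of the group, PlexA, CG11360 and anne, lie on chromosome 4 and are described with it.

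By fold change, the 10 largest rises and 10 largest falls were taken from 1286 genes with a mean of at least 100 RPM, of which 528 rose and 333 fell on both scales without overlap of the libraries. The values in brackets are centred log2 fold changes with their SE. Cam, the calmodulin gene, had 114, 99.8 and 122 RPM with WT and 962, 921 and 1036 RPM with KEE, the largest centred change at 2.56 ± 0.082. The F-box gene FBXO11 followed with 90.6, 95.9 and 68.9 RPM with WT and 688, 676 and 718 RPM with KEE (2.48 ± 0.10). The kinase gene mbt, of the PAK family, went from 46.2 ± 7.06 to 289 ± 16.4 RPM (2.08 ± 0.10), the bZIP factor gene Pdp1 from 67.0 ± 5.36 to 407 ± 44.0 RPM (2.03 ± 0.094), and the uncharacterised CG3198 from 33.0 ± 3.51 to 206 ± 7.78 RPM (2.06 ± 0.094). The DEAD-box helicase gene bel had 68.7, 68.9 and 77.2 RPM with WT and 408, 398 and 442 RPM with KEE and a centred change of 1.97 ± 0.080. The other rises of this group, zfh1, fz2, lolal and Stip1, are described with their lists. No WT library reached a KEE library at any of the 10 genes, which was a condition of their choice.

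Among the falls, Tif-IA, which encodes a factor for RNA polymerase I initiation, had 978, 1009.7 and 941 RPM with WT and 195, 209 and 202 RPM with KEE and the steepest centred change at -2.82 ± 0.063. Dpp10, of the dipeptidyl peptidase family, had 1190.5, 1123 and 910.4 RPM with WT and 231, 255 and 235 RPM with KEE (-2.70 ± 0.086). The lectin gene galectin had 813, 796 and 789 RPM with WT and 183, 198 and 162 RPM with KEE (-2.69 ± 0.072). At each of these 3 genes the highest KEE library lay below the lowest WT library, which the choice of the falls required. The splicing regulator gene hfp fell from 1229 ± 10.3 to 384 ± 20.0 RPM (-2.23 ± 0.060) and the mitochondrial hydrolase gene Hibch from 283 ± 39.0 to 80.0 ± 2.47 RPM (-2.35 ± 0.093). The uncharacterised genes CG32280, CG8320, CG5687, CG3635 and CG31875 had centred changes of -2.58, -2.45, -2.40, -2.28 and -2.17. Of the 10 genes, 5 overlap another tested gene, and whether reads were counted by strand is not given in the sources used here. The partners of galectin (asRNA:CR44987, -1.49), CG32280 (Asciz, -0.94) and CG31875 (SoYb, -0.998) were also lower when centred, and those of CG8320 (ATPCL, 0.58) and Hibch (Cog2, 0.33) were higher.

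The lists that follow are set beside all 4078 tested genes, of which 59.1% were higher and 19.9% lower in RPM, and 35% higher and 38% lower when centred. Over these 4078 genes the libraries did not overlap at 2439 higher and 845 lower in RPM, and at 1486 higher and 1611 lower when centred. Up to 4 members of each list were picked by their centred p, so a lack of overlap at them is no result. Some members reached 10 RPM in every library of one group and in none of the other, so they had to differ to be tested. Where leaving these out turns a median or moves it or a count by over 1.5 times, that value, added after the data were seen, is given too.

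Of 15 piRNA biogenesis genes in the table, 12 were tested. In RPM, 4 were higher and 2 lower, with a median log2 fold change of 0.10. Centred, 3 were higher and 8 lower, with a median of -0.45, so the median of this list changed sign with the scale. Without 1 gene that passed through KEE alone the medians were 0.020 and -0.53. The gene armi had 864, 857 and 913 RPM with WT and 1548, 1582 and 1529.7 RPM with KEE, a centred change of 0.27 ± 0.058. The gene of the Yb body scaffold, fs(1)Yb, had 87.8, 90.8 and 88.9 RPM with WT and 36.4, 36.2 and 30.0 RPM with KEE, which did not overlap, and its centred change was -1.91 ± 0.10. The Tudor-domain gene SoYb had 94.3, 92.1 and 96.1 RPM with WT and 68.0, 68.7 and 69.3 RPM with KEE (centred -0.998 ± 0.083). The gene piwi had 520.0, 576 and 444 RPM with WT and 513, 518 and 522 RPM with KEE. These overlapped, and the RPM change was 0.020 while the centred change was -0.53 ± 0.082. The trimming exonuclease gene Nbr had 61.1, 62.5 and 54.6 RPM with WT and 51.2, 49.5 and 52.3 RPM with KEE, with a centred change of -0.76 ± 0.099 that was not matched in RPM (adjusted p = 0.0585, limma with Benjamini-Hochberg). Hsp83, the Hsp90 chaperone gene, rose from 863 ± 47.5 to 2126 ± 19.0 RPM (centred 0.75 ± 0.060). The genes daed (2.61, 4.71 and 3.01 RPM with WT and 4.25, 6.76 and 6.01 RPM with KEE) and zuc (3.92, 2.57 and 4.90 RPM with WT and 4.25, 4.60 and 2.75 RPM with KEE) lay under the filter.

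For the nuclear arm of silencing, 15 of 19 genes were tested, and 5 were higher and 4 lower when centred, with a median of 0.036. In RPM 10 were higher and 4 lower. Without 2 genes that passed through KEE alone the centred median was -0.17. Su(var)2-10, the SUMO ligase gene, had 1713, 1716 and 1793 RPM with WT and 1029.7, 1007 and 1051 RPM with KEE (centred -1.31 ± 0.059). The SUMO-conjugating enzyme gene lwr had 171, 189 and 204 RPM with WT and 127, 111 and 117 RPM with KEE (centred -1.21 ± 0.087). The heterochromatin adaptor gene ova had 90.9, 92.5 and 82.9 RPM with WT and 56.8, 67.1 and 60.8 RPM with KEE (centred -1.07 ± 0.094). The corepressor gene CoRest rose, with 130.1, 129 and 134 RPM with WT and 319, 323 and 312 RPM with KEE (centred 0.72 ± 0.066). The libraries of the groups did not overlap at any of these 4 genes.

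Genes of the siRNA and microRNA pathways were mostly lower when centred, 6 of 9 tested against 2 higher, with a median of -0.68. In RPM 3 were higher and 4 lower, with a median of -0.13. Dcr-2, which cuts long double-stranded RNA into siRNAs, had 938, 909 and 1003 RPM with WT and 509, 506 and 463 RPM with KEE (centred -1.50 ± 0.064). Its partner gene loqs had 54.1, 60.8 and 51.2 RPM with WT and 19.4, 26.2 and 22.5 RPM with KEE (centred -1.80 ± 0.13). The exportin gene Ranbp21 fell from 111 ± 3.08 to 77.3 ± 6.27 RPM (centred -1.06 ± 0.085). The GW182 gene gw, which lies on chromosome 4, had 504, 448 and 493 RPM with WT and 439, 439 and 439 RPM with KEE. The groups did not overlap, but the RPM change of -0.13 did not pass the test (adjusted p = 0.0711, limma with Benjamini-Hochberg). The centred change of gw was -0.68 ± 0.064.

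Of 23 germline genes, 8 were tested. Centred, 3 were higher and 4 lower with a median of -0.19, and in RPM 4 were higher and 1 lower with a median of 0.36, so the direction turned with the scale. The gene pgc, a repressor of transcription in primordial germ cells, had 315, 320.3 and 254 RPM with WT and 101, 107 and 98.9 RPM with KEE, far apart in the groups (centred -2.06 ± 0.089). The Tudor-domain gene tud (-0.64) and the helicase gene spn-E (-0.70) were lower when centred, and the Tudor-domain gene krimp was higher (0.50). The RPM changes of tud and spn-E, -0.093 and -0.15, did not pass the test.

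Among the transcription factors of follicle and other somatic cells, 13 of 18 were tested, and 10 were higher and 2 lower when centred, with a median of 0.64. In RPM 11 were higher and 1 lower. The homeodomain gene ct (chrX:7608428-7678859) had 14.1, 16.7 and 15.4 RPM with WT and 89.7, 87.6 and 98.1 RPM with KEE (centred 1.95 ± 0.12). The scalloped gene sd, the DNA-binding partner of Yorkie, had 129, 134 and 116 RPM with WT and 404, 423 and 429 RPM with KEE (centred 1.17 ± 0.074). The lowest KEE library lay above the highest WT library at both. The gene tj, the marker that gives the most reads of this list, moved the other way.

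The ecdysone response list holds the receptor of the steroid hormone ecdysone and other genes of the response to it. Of 12 genes 9 were tested, and all 9 were higher on both scales, with a median centred change of 0.96, against -0.03 over all 4078 genes. The nuclear receptor gene ftz-f1 (chr3L:18750607-18801309) had 148, 123 and 124 RPM with WT and 618, 564 and 659 RPM with KEE (centred 1.66 ± 0.084). Eip93F, an ecdysone-induced factor gene, had 14.9, 18.8 and 15.8 RPM with WT and 94.8, 90.6 and 101 RPM with KEE (centred 1.92 ± 0.12). The broad gene br, of a BTB zinc-finger factor, had 153, 153 and 159 RPM with WT and 459.6, 454 and 474 RPM with KEE (centred 1.02 ± 0.065), and the receptor coactivator gene tai went from 72.3 ± 7.70 to 207 ± 1.12 RPM (centred 0.96 ± 0.087). None of these 4 overlapped between the groups.

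The EGF receptor and Ras pathway had 18 tested genes of 21, with 12 higher and 2 lower when centred and a median of 0.67. In RPM 16 were higher and 1 lower. The ligand gene vn, neuregulin-like, had 83.1, 73.7 and 84.4 RPM with WT and 328, 309 and 315 RPM with KEE (centred 1.42 ± 0.077). The gene S, whose product helps to export another ligand, had 34.5, 36.0 and 36.9 RPM with WT and 169, 179.9 and 166 RPM with KEE (centred 1.68 ± 0.086). The feedback inhibitor gene sty had 313, 302 and 274 RPM with WT and 1235, 1276 and 1332 RPM with KEE (centred 1.56 ± 0.067), which did not overlap, and kek1 is given among the gains.

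In the Wnt pathway, 15 of 22 genes were tested, and 8 were higher and 2 lower when centred (12 and 1 in RPM), with a median of 0.27. The receptor gene fz2 (chr3L:19140975-19235373) had 74.7, 59.1 and 70.8 RPM with WT and 491, 468 and 502 RPM with KEE (centred 2.28 ± 0.087). The genes of the heparan sulfate coreceptors dlp and dally rose, dlp with 105, 111 and 108 RPM with WT and 402, 392 and 432 RPM with KEE (centred 1.36 ± 0.073) and dally from 15.5 ± 1.42 to 46.6 ± 4.62 RPM (centred 0.98 ± 0.13). The coreceptor gene arr fell, with 55.6, 64.7 and 65.5 RPM with WT and 49.1, 48.4 and 49.3 RPM with KEE (centred -0.88 ± 0.10). The receptor and the coreceptors thus did not move one way.

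Hedgehog pathway genes, all 11 of which were tested, split into 5 higher and 3 lower when centred, with a median of 0.06 (8 and 2 in RPM). The ligand gene hh had 141, 135 and 163 RPM with WT and 440.5, 402 and 388 RPM with KEE (centred 0.93 ± 0.083), and the coreceptor gene boi had 15.9, 15.8 and 15.1 RPM with WT and 47.8, 53.8 and 51.1 RPM with KEE (centred 1.09 ± 0.12). The release transporter gene disp had 418, 385 and 379 RPM with WT and 241, 240.2 and 230.3 RPM with KEE (centred -1.28 ± 0.065). The acyltransferase gene rasp had 26.4, 33.0 and 28.3 RPM with WT and 17.8, 26.0 and 22.8 RPM with KEE (centred -0.94 ± 0.16). Its groups did not overlap, though the lowest WT and the highest KEE library lay close, at 26.4 and 26.0 RPM.

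Of 15 Notch pathway genes, 13 were tested, and 7 were higher and 5 lower when centred (8 and 3 in RPM), with a median of 0.51. The protease gene kuz, whose product cuts the receptor, had 358, 316 and 341 RPM with WT and 1032, 1020.5 and 1059 RPM with KEE (centred 1.07 ± 0.064). The antagonist gene H had 240.3, 252 and 209 RPM with WT and 726, 716 and 689.6 RPM with KEE (centred 1.05 ± 0.073), and the coactivator gene mam went from 293 ± 16.6 to 723 ± 28.3 RPM (centred 0.75 ± 0.067). The gamma-secretase gene Nct went the other way, from 315 ± 15.1 to 278 ± 16.1 RPM (centred -0.73 ± 0.068).

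The Hippo pathway, a growth-restraining kinase chain, had 10 tested genes of 15, with 6 higher and 3 lower when centred (7 and 1 in RPM) and a median of 0.67. Its upstream activator genes kibra and ex had 215, 212 and 200.0 RPM with WT and 874, 836 and 774 RPM with KEE (centred 1.43 ± 0.065) and 30.8, 24.4 and 28.6 RPM with WT and 139, 147 and 153 RPM with KEE (centred 1.80 ± 0.10). The kinase gene wts had 30.6, 36.0 and 32.4 RPM with WT and 86.3, 90.9 and 91.9 RPM with KEE (centred 0.87 ± 0.10). All 3 were free of overlap. Without 1 gene of the list that passed through WT alone, 7 were higher and none (0) lower in RPM.

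JNK pathway genes were tested for 12 of 15, and 7 were higher and none (0) lower when centred, with a median of 0.51, and in RPM 11 were higher and none (0) lower. Without WT replicate 3 the centred counts were 7 higher and 2 lower. The phosphatase gene puc, a target and brake of the pathway, had 67.9, 54.0 and 45.2 RPM with WT and 227, 237 and 210.3 RPM with KEE (centred 1.46 ± 0.12), and the kinase gene hep had 35.5, 34.7 and 28.3 RPM with WT and 83.6, 90.1 and 80.1 RPM with KEE (centred 0.80 ± 0.11). The factor gene Atf3 went from 178 ± 1.60 to 662 ± 36.8 RPM (centred 1.34 ± 0.067) and the kinase gene msn from 175 ± 11.8 to 339 ± 18.6 RPM (centred 0.40 ± 0.075).

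In the insulin and TOR list, 10 of 16 tested genes were higher and 3 lower when centred (12 and 2 in RPM), with a median of 0.45. The receptor gene InR had 81.8, 75.8 and 68.2 RPM with WT and 228, 239.9 and 224 RPM with KEE (centred 1.06 ± 0.082) and the transcription factor gene REPTOR 481, 461 and 432 RPM with WT and 1006, 1009 and 1019.5 RPM with KEE (centred 0.59 ± 0.061). The amino acid transporter gene slif had 109, 99.3 and 97.6 RPM with WT and 19.1, 16.8 and 20.3 RPM with KEE, with a centred change of -2.94 ± 0.11. Pi3K21B, a kinase adaptor gene, fell from 1467 ± 17.5 to 940.2 ± 7.18 RPM (centred -1.19 ± 0.056).

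The JAK-STAT list had 5 tested genes of 9. The phosphatase gene Ptp61F rose (centred 0.85 ± 0.11), the transcription factor gene Stat92E overlapped in RPM with 1212, 1256 and 1158 RPM with WT and 1189.5, 1171 and 1208 RPM with KEE and was lower when centred (-0.57 ± 0.059), and the small centred rises of the kinase gene hop (0.35 ± 0.14) and the inhibitor gene Socs36E (0.26 ± 0.11) each lost their call when any of 4 of the 6 libraries was left out. Of 13 Toll and Imd genes 5 were tested. The NF-kB gene dl had 673, 633 and 629 RPM with WT and 262, 239.6 and 239.5 RPM with KEE (centred -1.93 ± 0.065) and its inhibitor gene cact 60.9, 56.5 and 56.1 RPM with WT and 261, 271 and 274 RPM with KEE (centred 1.65 ± 0.076). The gene dl and its inhibitor thus moved in opposite directions on both scales. The adaptor gene Myd88 fell from 104 ± 2.72 to 36.3 ± 4.81 RPM (centred -2.04 ± 0.11).

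**Figure D4:**
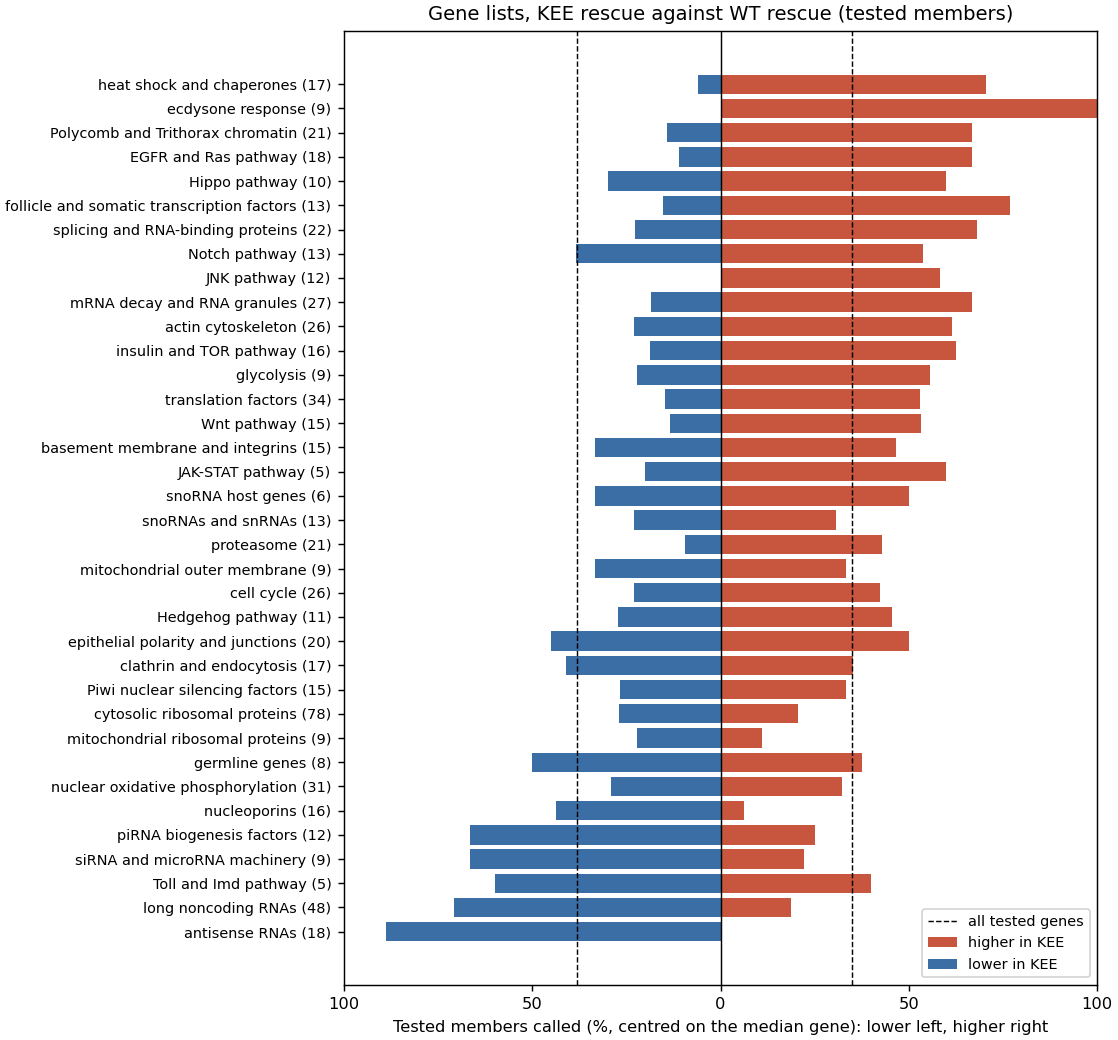
Share of the tested members of each list (number tested in brackets) that were lower (left, blue) or higher (right, red) with KEE when centred on the median gene, in %, for lists with at least 5 tested members, ordered by median fold change. Dashed lines mark the shares over all 4078 genes, 38% lower and 35% higher; the ecdysone response reaches 100% higher and the antisense RNAs 88.9% lower.

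Heat shock and chaperone genes were mostly higher on both scales. Of 24 genes 17 were tested, and 12 were higher and 1 lower when centred, 9 of them at least 2-fold higher, with a median of 1.29. In RPM 16 were higher and none (0) lower. Without 3 genes that passed through KEE alone, 9 of 14 were higher and 1 lower when centred, with a median of 0.78. Stip1, a co-chaperone gene that links Hsp70 and Hsp90, had 56.7, 52.2 and 48.6 RPM with WT and 361, 366 and 358 RPM with KEE (centred 2.22 ± 0.077). The BAG-family gene stv had 30.3, 38.1 and 38.8 RPM with WT and 164, 152 and 161 RPM with KEE (centred 1.58 ± 0.11), and the DnaJ gene Droj2 had 54.1, 42.0 and 58.8 RPM with WT and 217, 235 and 226 RPM with KEE (centred 1.57 ± 0.11). The KEE libraries lay above the WT libraries at each of these 3. Of the 24 genes, 4, among them Hsp70Aa and Hsp22, had no read in any of the 6 libraries.

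Actin cytoskeleton genes were higher for 16 and lower for 6 of 26 tested when centred (21 and 2 in RPM), with a median of 0.47. The actin gene Act5C had 196, 205.1 and 232 RPM with WT and 954, 1053 and 986 RPM with KEE (centred 1.69 ± 0.074), and the profilin gene chic had 221, 225 and 182 RPM with WT and 880.2, 927 and 872 RPM with KEE (centred 1.54 ± 0.078). The membrane linker gene Moe went from 70.4 ± 0.955 to 295 ± 6.54 RPM (centred 1.50 ± 0.071), and the filament elongation factor gene ena had 18.0, 18.8 and 17.7 RPM with WT and 166, 143 and 181 RPM with KEE (centred 2.54 ± 0.11). The lowest KEE library exceeded the highest WT library at all 4. Basement membrane and integrin genes split into 7 higher and 5 lower of 15 tested when centred, and 11 higher and 1 lower in RPM. The laminin gene LanB2 (centred 0.95 ± 0.079), the perlecan gene trol (0.64 ± 0.062) and the vinculin gene Vinc (0.68 ± 0.076) rose, and the integrin-linked kinase gene Ilk fell from 445 ± 5.67 to 245 ± 6.79 RPM (-1.41 ± 0.063).

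Cell polarity and junction genes gave 14 higher and 3 lower of 20 tested in RPM, 10 higher and 5 lower with gene-table totals, and 10 higher and 9 lower when centred. The centred median was 0.052, and -0.13 without 1 gene that passed through KEE alone. The basolateral genes l(2)gl and scrib fell, scrib with 298, 305 and 266 RPM with WT and 202, 200.4 and 215 RPM with KEE (centred -1.04 ± 0.074). The apical kinase gene aPKC rose, with 133, 146 and 131 RPM with WT and 416, 395 and 461 RPM with KEE (centred 1.07 ± 0.080), and the junction gene p120ctn fell from 485 ± 51.5 to 249.6 ± 5.44 RPM (centred -1.50 ± 0.077). The third basolateral gene, dlg1, was higher in RPM (0.30 ± 0.061) and lower when centred (-0.25 ± 0.063). Clathrin and endocytosis genes gave 12 higher and 2 lower of 17 in RPM, and 6 higher and 7 lower when centred, shares near those of all genes. The adaptor subunit gene AP-2mu had 383, 395 and 399 RPM with WT and 162, 153 and 134 RPM with KEE (centred -1.94 ± 0.075) and the dynamin gene shi 524, 510.0 and 492 RPM with WT and 390.0, 399 and 409.5 RPM with KEE (centred -0.90 ± 0.062). The clathrin-binding protein genes HIP-R (15.8 to 154 RPM, centred 2.66 ± 0.10) and lqf (18.1 to 65.6 RPM, centred 1.26 ± 0.13) rose.

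Genes of messenger RNA decay and RNA granules were higher for 18 and lower for 5 of 27 tested when centred (22 and 2 in RPM), with a median of 0.50. The stress granule gene rin had 114, 116 and 109 RPM with WT and 552, 588 and 594 RPM with KEE (centred 1.80 ± 0.067). The decapping activator gene Patr-1 had 1641, 1508 and 1317 RPM with WT and 723, 795 and 757 RPM with KEE (centred -1.52 ± 0.075), with WT above KEE. The genes pAbp and bel, given above, belong here too. Splicing and RNA-binding protein genes had 15 higher and 5 lower of 22 tested when centred (17 and 4 in RPM), with a median of 0.56. The zinc-finger gene CNBP had 482, 486 and 505 RPM with WT and 2347, 2401 and 2438 RPM with KEE (centred 1.73 ± 0.059), the nuclear regulator gene spen went from 374 ± 16.8 to 1805 ± 52.1 RPM (centred 1.72 ± 0.062) and the hnRNP gene Hrb98DE from 234 ± 9.52 to 827 ± 21.9 RPM (centred 1.27 ± 0.062).

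Translation factor genes were higher for 18 and lower for 5 of 34 tested when centred (28 and 1 in RPM), with a median of 0.34. The elongation factor gene eEF1alpha1 had 509, 495 and 464 RPM with WT and 1278, 1332 and 1258 RPM with KEE (centred 0.85 ± 0.060). The start site selection factor genes eIF1 (71.8 to 226 RPM, centred 1.09 ± 0.079), eIF1A (27.3 to 105 RPM, 1.35 ± 0.10) and eIF5 (11.4 to 81.5 RPM, 2.22 ± 0.16) rose. Genes of cytosolic ribosomal proteins, of which 78 of 93 were tested, were higher for 52 and lower for 5 in RPM. The 66.7% higher lies near the 59.1% of all tested genes, and the 6.41% lower lies below their 19.9%. Centred, 16 were higher and 21 lower, with a median of -0.03 that was positive under each of the other scalings (0.52 in RPM, 0.20 with gene-table totals and 0.05 with TMM factors). RpL11 (146 to 589 RPM, 1.46 ± 0.069) and RpL24 (70.7 to 307 RPM, 1.56 ± 0.095) rose, and RpS10b (198 to 160.0 RPM, -0.85 ± 0.073) and RpS21 (84.9 to 59.7 RPM, -1.05 ± 0.096) fell. The ribosomal protein genes did not move as a block relative to the median gene.

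Polycomb and Trithorax genes, which keep genes silent or active through chromatin, were higher for 14 and lower for 3 of 21 tested when centred (18 and 1 in RPM), with a median of 0.84. The BTB gene lolal had 97.4, 103 and 61.4 RPM with WT and 566, 608 and 581 RPM with KEE (centred 2.22 ± 0.14). The histone methyltransferase gene trx had 109, 106 and 108 RPM with WT and 363, 352 and 391 RPM with KEE (centred 1.22 ± 0.072), and the remodelling subunit gene osa went from 125 ± 21.2 to 494 ± 15.9 RPM (centred 1.44 ± 0.099). The DNA-binding Polycomb gene pho, on chromosome 4, fell from 185 ± 1.48 to 106 ± 3.79 RPM (centred -1.34 ± 0.072). Nucleoporin genes gave 7 higher and 4 lower of 16 tested in RPM, with a median of 0.28, and 1 higher and 7 lower when centred, with a median of -0.27. Their lower share when centred, 43.8%, lies near the 38% of all tested genes. Their higher share, 6.25%, lies below the 35% of all tested genes. Nup154 had 133, 123 and 156 RPM with WT and 70.9, 70.3 and 68.1 RPM with KEE (centred -1.51 ± 0.094), and Nup153 was the exception with 58.8, 47.1 and 53.9 RPM with WT and 232, 246 and 236 RPM with KEE (centred 1.59 ± 0.089). The genes Mgtor (-0.74) and Gp210 (-0.57) were lower when centred, with RPM changes of -0.19 and -0.020.

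Of 26 tested cell cycle genes, 21 were higher and 2 lower in RPM, with a median of 0.63. Centred, 11 (42.3%) were higher and 6 (23.1%) lower, beside 35% and 38% of all tested genes, with a median of 0.077. The transcription factor gene E2f1 had 91.2, 96.3 and 90.4 RPM with WT and 368, 359 and 399 RPM with KEE (centred 1.46 ± 0.075), while the gene of its dimer partner Dp had 692, 731 and 619 RPM with WT and 473, 450.1 and 467 RPM with KEE (centred -1.10 ± 0.070). The partners thus differed in sign on both scales. The anaphase activator gene fzr rose from 11.1 ± 2.95 to 53.0 ± 4.00 RPM (centred 1.64 ± 0.17), and the cyclin gene CycB fell from 261 ± 14.4 to 230.4 ± 9.32 RPM (centred -0.73 ± 0.070).

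Metabolic genes were mixed. Glycolysis genes were higher for 5 and lower for 2 of 9 tested when centred (7 and 1 in RPM), with a median of 0.37. The enolase gene Eno had 275, 263 and 280.2 RPM with WT and 1437, 1505 and 1318 RPM with KEE (centred 1.83 ± 0.064), the hexokinase gene Hex-A rose from 64.0 ± 2.72 to 187 ± 5.45 RPM (centred 0.98 ± 0.079) and the lactate dehydrogenase gene Ldh from 20.6 ± 5.28 to 94.3 ± 10.8 RPM (centred 1.62 ± 0.16). The regulator gene Pfrx fell from 826 ± 40.0 to 560.5 ± 31.6 RPM (centred -1.11 ± 0.065). Nuclear genes of oxidative phosphorylation gave 10 higher and 9 lower of 31 tested when centred (15 and 1 in RPM), and the median of -0.21 when centred was 0.34 in RPM and 0.03 with gene-table totals. ATPsynC (335 to 1035 RPM, 1.08 ± 0.083), COX7A (16.9 to 72.1 RPM, 1.48 ± 0.13) and Cyt-c-p (64.9 to 179.6 RPM, 0.93 ± 0.13) rose, and COX7C (59.4 to 46.7 RPM, -0.89 ± 0.12) fell.

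On the mitochondrial outer membrane, where Armi meets Zucchini, 6 of 9 tested genes were higher and none (0) lower in RPM. Centred, 3 were higher and 3 lower, 33.3% each, near the shares of all tested genes. The centred median was 0.079, and 0.00083 without 1 gene that passed through KEE alone. The import and channel genes Tom40 (68.4 to 177 RPM, 0.81 ± 0.090) and porin (87.6 to 267 RPM, 1.05 ± 0.076) and the fission gene Drp1 (34.9 to 77.1 RPM, 0.57 ± 0.096) rose. The clustering gene clu was lower when centred (-0.60 ± 0.086), with 287, 289.9 and 227 RPM with WT and 259.7, 259 and 252 RPM with KEE. Of 72 mitochondrial ribosomal protein genes only 9 were tested, and when centred (2 higher and 1 lower in RPM) 1 was higher (mRpL36, 0.74 ± 0.18) and 2 lower (mRpL21, -1.002 ± 0.13, and mRpL17, -0.63 ± 0.18), while mRpL23 (0.40 ± 0.19) did not pass. Proteasome genes gave 9 higher and 2 lower of 21 when centred (12 and 1 in RPM), but 5 and 2 (7 and 1 in RPM) without 5 genes that passed through KEE alone. The centred median went from 0.089 to -0.19 without them. Rpt5 (0.80 ± 0.14), Rpn2 (0.73 ± 0.13) and Prosalpha4 (0.94 ± 0.19) were higher and Prosbeta3 (-1.01 ± 0.18) lower when centred.

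Markers of other tissues that did pass the filter also changed. Of 3 blood cell markers, the scavenger receptor gene crq fell, with 189.6, 189 and 196 RPM with WT and 88.2, 82.2 and 80.4 RPM with KEE (centred -1.74 ± 0.076), and srp (0.30 ± 0.15) and ush (0.093 ± 0.15) did not pass when centred. The neuron marker elav rose, with 480.3, 499 and 444 RPM with WT and 1089, 1066 and 1143 RPM with KEE (centred 0.66 ± 0.065), as did futsch (18.9 to 39.3 RPM, 0.46 ± 0.13). The muscle gene sls fell from 1983 ± 177 to 1531 ± 19.2 RPM (centred -0.92 ± 0.068), and bt (-0.37 ± 0.13) and Mef2 (-0.29 ± 0.11) were lower when centred, calls that were lost with TMM factors and with DESeq2. In RPM 2 of the 3 blood cell markers were higher and 1 lower. Of the 3 muscle markers 1 was higher and 1 lower in RPM, and bt did not pass (0.18 ± 0.13). Of the markers that were not tested, Hml, NimC1, Mhc and the fat body list stayed at or near 0.

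Most of the tested antisense RNAs were lower with KEE on both scales, and most of the long noncoding RNAs were lower when centred. The share of antisense RNAs in the gene reads was 0.296%, 0.292% and 0.309% in the WT libraries and 0.143%, 0.137% and 0.139% in the KEE libraries, with no overlap and an exact permutation p of 0.1 (0.133 after Benjamini-Hochberg adjustment over the classes). Of 18 tested, 16 were lower when centred, 13 of them at least 2-fold, and none (0) was higher, with a median of -1.68. In RPM 14 were lower and 1 higher. asRNA:CR43609 had 95.6, 107 and 89.3 RPM with WT and 26.3, 22.99 and 23.5 RPM with KEE (centred -2.51 ± 0.11), asRNA:CR43468 had 68.4, 65.9 and 62.2 RPM with WT and 18.1, 14.6 and 13.8 RPM with KEE (centred -2.57 ± 0.13), and both stayed apart. asRNA:CR44690 went from 169 ± 2.36 to 66.8 ± 3.16 RPM (-1.88 ± 0.078) and asRNA:CR42547 from 173 ± 20.0 to 65.1 ± 4.54 RPM (-1.94 ± 0.095). Tested genes overlapped 8 of the 18, in 12 pairs. When centred, the overlapping gene was lower in 8 pairs, higher in 2 and neither in 2, beside 38% lower and 35% higher of all tested genes. The pairs are not independent, since some antisense RNAs, such as asRNA:CR43468, had several partners. If the counting ignored strand, reads of an antisense RNA and its partner could not be told apart.

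Long noncoding RNAs, flam included, were lower for 34 and higher for 9 of 48 tested when centred, with a median of -1.01. In RPM 22 were lower and 12 higher. Of the 48, 8 passed the filter through WT alone and 2 through KEE alone. Without these 10, 26 of 38 were lower and 7 higher when centred, with a median of -0.81, and 15 were lower and 10 higher in RPM. lncRNA:CR44564 had 47.8, 46.7 and 59.9 RPM with WT and 9.29, 11.1 and 9.51 RPM with KEE (centred -2.80 ± 0.15), and lncRNA:CR45732 had 54.3, 66.8 and 70.1 RPM with WT and 17.3, 15.7 and 16.5 RPM with KEE (centred -2.43 ± 0.13), neither with overlap. One of those that passed through WT alone, lncRNA:CR45399, had 24.3, 44.5 and 29.0 RPM with WT and 3.45, 3.52 and 4.00 RPM with KEE. WT replicate 3 stood apart at several of the others. There lncRNA:CR44206 gave 3532 RPM against 798 and 707 RPM in the other WT libraries, and 1123, 599.9 and 991 RPM with KEE. lncRNA:CR43651 and lncRNA:CR46006 showed the same library high, with 239, 185 and 1267 RPM and 64.3, 53.5 and 288 RPM in WT, and these 3 were chosen after their values were seen. Without that library 33 long noncoding RNAs were lower and 9 higher. The share of long noncoding RNAs other than flam was 0.929 ± 0.415% with WT and 0.630 ± 0.0662% with KEE, which overlapped (exact permutation p = 0.2, adjusted 0.229). The WT libraries had 0.699%, 0.680% and 1.41%, and without WT replicate 3 the difference, KEE minus WT, was -0.060 percentage points.

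Other structured RNAs gave few reads. The joint share of snoRNAs and snRNAs was 0.0703 ± 0.0131% in WT and 0.0697 ± 0.00559% in KEE (exact permutation p = 1). Of 13 tested, 4 were higher and 3 lower when centred, among them snRNA:U7 (5.78 to 30.3 RPM, 1.68 ± 0.18), snoRNA:185 (0.72 ± 0.14), snoRNA:Or-aca4 (62.0 to 25.5 RPM, -1.80 ± 0.15) and snoRNA:Dek-a (-1.42 ± 0.22). In RPM 8 of the 13 were higher and 2 lower. The gene snRNA:U7 passed the filter through KEE alone and snoRNA:Dek-a through WT alone. Without these 2 genes 7 were higher and 1 lower in RPM. One tRNA gene of 295 was tested, tRNA:Lys-TTT-2-1 (-1.42 ± 0.28). Of 6 tested host genes that carry snoRNAs in their introns, 5 were higher and 1 lower in RPM. Centred, 3 were higher and 2 lower. Uhg3 was lower (386, 409 and 369 RPM with WT and 217, 237 and 222 RPM with KEE, centred -1.33 ± 0.068). Uhg5 (0.40 ± 0.076), Uhg4 (0.64 ± 0.14) and Uhg8 (0.38 ± 0.10) were higher when centred. The share of protein-coding genes was 93.7 ± 0.699% in WT and 96.6 ± 0.111% in KEE, without overlap (exact permutation p = 0.1, adjusted 0.133).

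Genes of chromosome 4, the small and largely heterochromatic chromosome, gave a smaller part of the gene reads with KEE. This arm was singled out after its values were seen, and it was not tested against the other arms. The chromosome's share was 3.46%, 3.50% and 3.36% in the WT libraries and 1.84%, 1.86% and 1.84% in the KEE libraries. Of 55 tested genes, 25 were lower and 19 higher in RPM, with a median of -0.071. Centred, 36 (65.5%) were lower and 5 higher, with a median of -0.62. With TMM factors 32 were lower and 8 higher, and with gene-table totals 30 were lower and 10 higher. The semaphorin receptor gene PlexA (chr4:1009895-1027101) had 3600.4, 3607 and 3205 RPM with WT and 1715, 1743 and 1726 RPM with KEE (centred -1.55 ± 0.063). The gene CG11360 (chr4:671142-690650) had 3209, 3229.6 and 2933 RPM with WT and 1416, 1437 and 1445 RPM with KEE (centred -1.67 ± 0.060) and anne (chr4:132220-143123) had 2492, 2538 and 2257 RPM with WT and 848, 863 and 875 RPM with KEE (centred -2.04 ± 0.062). The lysosomal regulator gene Mitf (1489 to 602 RPM, -1.85 ± 0.057), the zinc transporter gene Zip102B (1051 to 481 RPM, -1.67 ± 0.058) and the growth factor gene myo (425 to 179.8 RPM, -1.78 ± 0.067) fell with them, and the synaptic vesicle priming gene unc-13 rose (892 to 1581 RPM, 0.28 ± 0.058). These 4 were named for their place on the chromosome. On the other arms 33.2% to 41.5% of tested genes were lower when centred, from 251 of 756 on X to 331 of 797 on 2R.

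The share of genes called higher was larger in the bins of longer genes. Sorted into 10 equal bins by gene span, which counts introns, 96 of the 394 shortest protein-coding genes were higher and 152 lower when centred, with a median of -0.22. In RPM the same bin had 190 higher and 74 lower, with a median of 0.33. Of the 394 longest, which span at least 25170 bases, 214 were higher and 106 lower when centred, with a median of 0.36, and 289 were higher and 49 lower in RPM. Genes are not independent replicates and share the same 6 libraries, so no p is given. Over 2004 pairs of tested neighbours within 5000 bases the correlation of their centred changes was 0.0051.

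**Figure D5:**
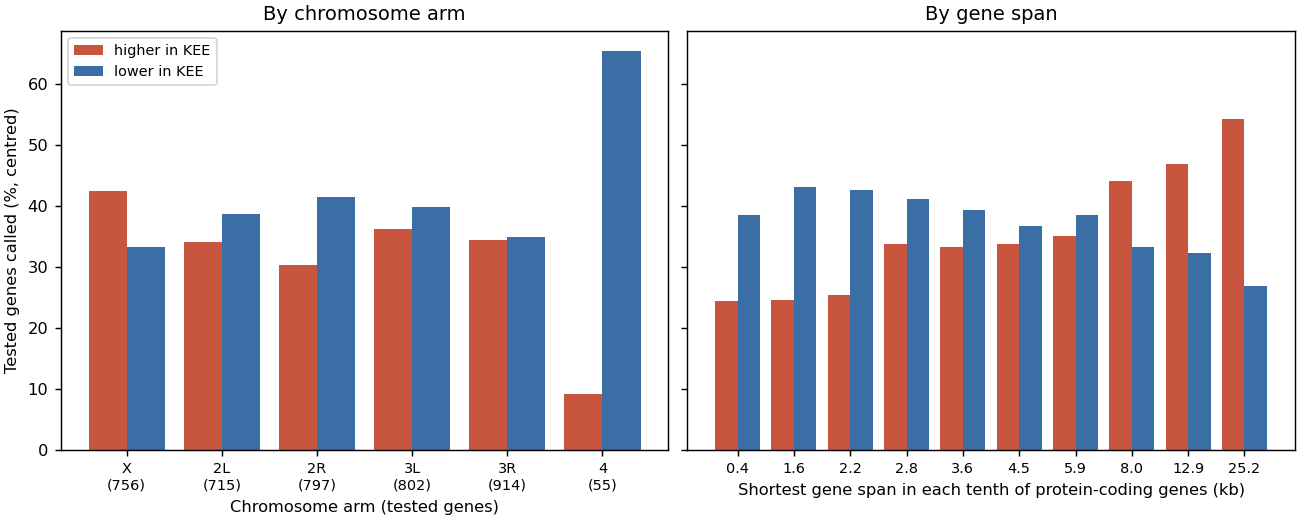
Share of tested genes (%, vertical) that were higher (red) or lower (blue) with KEE when centred, by chromosome arm with the number of tested genes in brackets (left) and by 10 equal bins of protein-coding genes ordered by span, labelled with the shortest span in kb (right). On chromosome 4 the lower share is 65.5%, and the higher share grows from 24.4% in the bin of the shortest genes to 54.3% in that of the longest.

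The 106 genes called in opposite directions on the 2 scales lay between the unchanged RPM level and the shift of the median gene. The 6 with the clearest calls were rudhira, CG9727, CG32066, dlg1, Cyp4p1 and Rac1. Rac1, a small GTPase gene of actin control, had 419, 427 and 405 RPM with WT and 470.2, 492 and 516 RPM with KEE, a rise in RPM (0.24 ± 0.062) and a fall when centred (-0.31 ± 0.065). The gene rudhira had 470.1, 497 and 479.9 RPM with WT and 575, 603 and 586 RPM with KEE, with 0.29 ± 0.059 in RPM and -0.26 ± 0.060 when centred. The changes of the other 4 were between 0.27 and 0.30 in RPM and between -0.28 and -0.25 when centred. All 6 had slightly negative changes with gene-table totals.

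At the edge of the rule, CG10195 entered with 9.40, 4.71 and 6.78 RPM with WT and 13.0, 10.0 and 11.8 RPM with KEE, its third-highest library at 10.0 RPM, and fh stayed out with 9.93, 10.3 and 11.3 RPM with WT and 9.29, 8.38 and 8.76 RPM with KEE, its third-highest at 9.93 RPM. Of the 4078 genes, 288 reached 10 RPM in 3 libraries through KEE alone and 55 through WT alone, and these had to differ to be included. The largest differences of the first kind, given as values only, included CG6961 (8.52 to 51.7 RPM), hyx (8.80 to 44.6 RPM) and Epac (8.27 to 40.3 RPM). Of the second kind lncRNA:CR45339 (22.3 to 6.89 RPM) and CG3652 (21.3 to 8.20 RPM) were examples.

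The 20 genes with the largest centred rises and falls were also read against the Daed knockdown of the same series, in which the rescue plasmid carried Daed WT or the deltaSAM form without its SAM domain, 3 libraries each. A fit of all 12 libraries tested whether the KEE change differed from the deltaSAM change in RPM. It differed for 18 of the 20 genes, beside 68.7% of all 4078 genes, and since these 20 were chosen for their size with KEE the count itself is no result. The exceptions were CG5687, which went from 228 to 63.5 RPM with deltaSAM (difference -0.02, adjusted p = 0.929, limma with Benjamini-Hochberg), and CG3635, which went from 211 to 48.3 RPM (difference 0.37, adjusted p = 0.0836). Centred, CG5687 differed as well (-0.53, adjusted p = 0.0155). Dpp10 fell in both experiments, with deltaSAM from 1023 to 339 RPM. Cam stayed low in the Daed libraries, at 54.2 and 65.9 RPM.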

How the data were processed

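The deposited gene table holds RPM for 17469 genes, which the authors had normalised to the size of each library, per the file headers. The submitters' processing notes list STAR and HTSeq as tools and BDGP6 and dm6 as builds, with no version. Strandedness and the treatment of multiply mapped reads are not given in the sources used here. Whole reads were recovered from every RPM value within 0.01. Symbols and coordinates came from RefSeq's dm6 table and matched 17341 identifiers (99.3%).

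Genes with at least 10 RPM in 3 of the 6 Armi libraries were fitted with limma-trend on log2(RPM + 1), KEE against WT, with Benjamini-Hochberg adjustment over 4078 genes and a threshold of 0.05, in RPM and after centring each library on its median tested gene. The pseudocount shrinks the fold changes of genes with few reads. Errors of fold changes are SE and those of RPM are SD (n = 3). Single measures were tested by exact two-sided permutation. Genes were named by rule: the 12 largest gains and losses in RPM, the 10 largest rises and falls by centred change at a mean of at least 100 RPM, up to 4 per list by p, the 20 with the most reads in WT, 6 called oppositely on the 2 scales, and armi, daed, zuc, piwi, flam and tj. The gains, losses, rises and falls had to be called alike on both scales without overlap of the libraries. The genes, lists and comparisons were chosen with earlier results of these data known. Alternatives were pseudocounts of 0.1 and 10, other filters, all 12 libraries, a replicate block, gene-table totals, removal of structural RNAs, edgeR and DESeq2 on the recovered counts, and each library left out. The code was tested on simulated data. Tools were DESeq2 1.42.0, edgeR 4.0.16 and limma 3.58.1 under R 4.3.3, and matplotlib 3.10.9, scipy 1.17.1, pandas 2.3.3 and numpy 2.4.6 under Python 3.11.15. Transposon values were not used here.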

Additional observations from a re-analysis of the deposited data

Results flagged for a closer look

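For 18 of the 20 genes with the largest centred rises and falls, the KEE change and the deltaSAM change of the Daed knockdown differed in a test of the difference itself (limma over 12 libraries with Benjamini-Hochberg), beside 68.7% of all 4078 genes. The 2 experiments have their own WT libraries and different depths, and the genes were chosen for their size with KEE, so the count itself is no result. The difference in RPM log2 fold change, KEE minus deltaSAM, was 3.08 for lolal, 2.83 for Cam, 2.52 for Stip1, 2.38 for zfh1 and 2.24 for CG3198. For fz2 it was 2.12, for Pdp1 1.98, for FBXO11 1.83, for bel 1.35 and for mbt 1.22. The deltaSAM change in RPM was -0.32 for lolal and lay between 0.24 for Stip1 and 1.41 for mbt at the other rises. Reads assigned to genes made up 50.8%, 50.5% and 49.2% of the Daed WT libraries and 58.3%, 58.4% and 57.3% of the deltaSAM libraries. That shift enters the RPM of every gene. Over all 4078 genes the KEE and deltaSAM changes in RPM had a correlation of 0.17.

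Among the falls the difference was -2.37 for Tif-IA, -1.95 for galectin, -1.83 for CG8320, -1.70 for CG32280, -1.41 for Hibch and -1.22 for hfp. It was smaller for CG31875 (-0.82) and Dpp10 (-0.56), with deltaSAM changes of -0.80 and -1.59. The part played by the rescue itself, the knocked-down gene and the separate preparation of the 2 experiments cannot be told apart.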

How the results depend on the processing

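The count of changed genes was 3222 in RPM and 3052 to 3287 when 1 library was left out. Centred it was 2979 and 2740 to 3013. Over the other settings it was 3027 (all 12 libraries) to 4221 (at least 1 RPM in 3 libraries) in RPM and 2686 (all 12 libraries) to 4278 (no filter) when centred. DESeq2 gave 1351 higher and 1407 lower, and edgeR with TMM factors 1578 higher and 1448 lower. The centred split turned with no filter, to 2553 higher and 1725 lower. Without one library each, the difference in gene share was 15.4 to 16.6 percentage points and that of the effective number of genes 244 to 272.

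The share of snoRNAs and snRNAs changed sign, with a range of -0.00596 to 0.00667 percentage points over the left-out libraries. Between same-numbered libraries, the deviations from the group means had correlations of -0.025, 0.088 and -0.012. Those between differently numbered libraries ranged from -0.15 to 0.15. No pairing by number was seen, but these values cannot show whether same-numbered libraries were prepared together. A replicate block gave 3227 genes in RPM (2407 higher, 820 lower) and 2967 when centred (1418 higher, 1549 lower).

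Single genes of small change turned direction in 22 cases. Without a filter the centred change was 0.035 for bt, 0.12 for Mef2, 0.068 for Unr, 0.14 for rudhira, 0.15 for CG9727, 0.14 for CG32066, 0.16 for dlg1, 0.13 for Cyp4p1 and 0.098 for Rac1. With gene-table totals the change was -0.31 for piwi, -0.12 for Unr, -0.20 for larp, -0.19 for Usp10, -0.041 for rudhira, -0.033 for CG9727, -0.043 for CG32066, -0.028 for dlg1, -0.055 for Cyp4p1 and -0.087 for Rac1. The RPM change of piwi ranged from -0.081 (without WT replicate 3) to 0.11 (without WT replicate 2). The centred change of ush ranged from -0.034 (without WT replicate 2) to 0.23 (without KEE replicate 2) and was -0.013 without KEE replicate 1. A further 43 calls on named genes were lost and 24 gained, and 4034 kept their direction and side of the threshold. Centring on all genes without a filter sets the median at genes with few reads. The cause of the other turns was not tested.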
